A study of Mus musculus with 24 samples.

Results

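The type II hair keratins are the basic keratins from which the hair shaft is built, and in the mouse the family examined here has 7 genes, Krt81 to Krt87. All 7 were chosen by name, and all 7 were found among the 18892 gene symbols of the expression table. They were followed in the skin of 24 mice, with 4 mice in each of 6 groups. Treatment mice were given dihydrotestosterone (DHT, a potent androgen) by daily injection together with a topical extract of Hanlianxiang (HLX), a traditional Chinese medicine formula. Model mice were given the same DHT injections with the solvent alone on the skin, and control mice were given saline injections with the solvent. Skin was taken at day 15 or at day 10, each library is the polyadenylated RNA of 1 mouse, and the comparisons ask what DHT did to skin and what the extract did in DHT-injected mice. Strain, sex, age and hair cycle stage are not given in the sources used here, and the androgen was injected rather than made by the animal, which limits the groups as a model of androgen action on hair.

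A hair fiber is packed with keratin filaments, and each filament is made of pairs of an acidic type I and a basic type II keratin. The cysteine-rich ends of hair keratins are cross-linked to keratin-associated proteins, which makes the fiber hard. In the human follicle the type II members come on in sequence as cells move up from the matrix. KRT85 appears lowest, in matrix and precortex. KRT82 marks the cuticle, the outer layer of the shaft. KRT81, KRT83 and KRT86 follow in the cortex, and changes in human KRT81 and KRT86 cause the beaded-hair disorder monilethrix. Human KRT84 is known from the filiform papillae of the tongue, and the human counterpart of Krt87 is a pseudogene, while the mouse gene has an open reading frame.

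Of these genes, 6 could be placed on the GRCm38 mouse assembly with the GENCODE M21 annotation, and they lie side by side on chromosome 15. Along the chromosome the order is Krt87 (chr15:101431038-101438804), Krt81 (chr15:101459061-101463751), Krt86 (chr15:101473478-101479986), Krt83 (chr15:101485130-101491512), Krt84 (chr15:101525026-101532820) and Krt82 (chr15:101541214-101550667). Krt86 is on the plus strand and the other 5 are on the minus strand, and each of the 6 has 9 exons. These positions come from the reference annotation and not from the expression table, whose reads were placed on GRCm39 per the submitters' processing notes. Krt85 is described here by its expression alone.

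The coding sequences fall into a close set and a distant pair. Krt81 and Krt86 are identical at 93.4% of 1446 aligned coding bases, with an unbroken identical run of 374 bases. Krt81 and Krt83 are identical at 93.1%, Krt83 and Krt86 at 91.7%, and Krt87 at 88.7 to 89.2% with each of those 3. Krt82 and Krt84 are identical at 64.1% with each other and at 64.3 to 67.8% with the close set. The likeness bears on how reads can be assigned, so a stretch in which the 4 close genes cannot be told apart is printed first. It spans bases 943 to 1032 of the Krt81 coding sequence, counted from the A of the start codon, in the genome's reference sequence (GRCm38, chromosome 15), and it is the same in all 4 genes:
Krt81, Krt83, Krt86 and Krt87: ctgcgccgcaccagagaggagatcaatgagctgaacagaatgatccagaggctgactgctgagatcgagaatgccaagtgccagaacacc

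The 90-base stretch in which the same 4 genes differ most spans bases 1228 to 1317 of the Krt81 coding sequence, and 24 of its positions differ in at least 1 gene. It shows what separates reads of these genes, and capitals mark bases unlike Krt81, which number 9 in Krt83, 17 in Krt86 and 12 in Krt87:
Krt81: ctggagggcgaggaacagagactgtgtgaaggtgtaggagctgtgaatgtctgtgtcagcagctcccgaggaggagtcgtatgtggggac
Krt83: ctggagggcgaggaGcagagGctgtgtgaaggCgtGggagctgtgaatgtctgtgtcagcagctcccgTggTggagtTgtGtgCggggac
Krt86: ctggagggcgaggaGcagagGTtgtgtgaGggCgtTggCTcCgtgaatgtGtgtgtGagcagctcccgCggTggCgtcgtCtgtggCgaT
Krt87: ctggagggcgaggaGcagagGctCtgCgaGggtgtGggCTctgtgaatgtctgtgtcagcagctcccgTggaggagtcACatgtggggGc

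Over whole transcripts, 29.0% of the 100-base windows of Krt81 occur unchanged in another member, and so do 24.6% of those of Krt86. The share is 5.43% for Krt83 and 5.42% for Krt87, and no such window was found in Krt82 or Krt84. Read length and the handling of reads with several matches are not given in the sources used here, so the split of reads between Krt81 and Krt86 is uncertain, as is that of Krt83 and Krt87 over a smaller share of their length. The windows were searched among these 6 transcripts alone, and matches to Krt85 or to genes outside the family were not searched.

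Promoter sequences were matched for Krt82 and Krt84, from RefSeq on GRCm38.p6. Both genes are on the minus strand, and the 150 bases before each start are printed because these are the only members whose promoters were found. Capitals mark the longest run the 2 promoters share on either strand, CCCAAGCTCATAAA, and the letters ATAAAAG, both read 5′ to 3′:
Krt82, chr15:101550660-101550809: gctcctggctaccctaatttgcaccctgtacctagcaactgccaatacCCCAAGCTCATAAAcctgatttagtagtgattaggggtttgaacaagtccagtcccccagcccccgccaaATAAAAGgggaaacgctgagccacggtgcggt
Krt84, chr15:101532821-101532970: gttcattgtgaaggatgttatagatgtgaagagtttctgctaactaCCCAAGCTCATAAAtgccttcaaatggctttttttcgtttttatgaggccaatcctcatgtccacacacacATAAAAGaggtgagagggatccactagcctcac

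The shared run of 14 bases begins 102 bases before the Krt82 start and 104 bases before the Krt84 start. Among 32851 mouse promoters of 300 bases searched on both strands it occurs in 2 (0.00609%), these same genes. The run was taken from these 2 promoters, so its presence in both was fixed by that choice. Promoters of the other members were not matched, so whether they hold the run is not known. It occurs in 0 of 58 promoters of type I hair keratins and keratin-associated proteins. ATAAAAG begins 32 bases before the Krt82 start and 33 before the Krt84 start, and occurs in 5.42% of all promoters and in 28 of those 58. It does not overlap the shared run, and a match of letters is a description of the sequence only.

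Levels are in FPKM, fragment counts scaled for gene length and library size, so they can be compared between genes. Whole reads recovered from the steps of the FPKM values numbered 36064157 to 40402478 per library. Krt84 rested on 118 to 1300 reads a library, and every other member rested on at least 2258, so counting noise is small beside the spread between mice in all but the lowest Krt84 values. All 7 members passed the filter on low values, which asked for 1 FPKM or more in 4 or more libraries. The hair origin of the tissue was checked with 5 shaft and matrix markers (Krt35, Krt31, Hoxc13, Foxn1 and Dsg4), which summed to 494 to 1427 FPKM and were above 0 in every group. In bulk skin, fewer shaft-forming cells and less RNA per cell cannot be told apart, and this holds for every difference given here.

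Some libraries stood apart. The kidney genes Umod, Slc12a1, Kap and Slc34a1, a list added after the values were seen, summed to 16.6 to 24.2 FPKM in model skin and 24.1 to 27.8 FPKM in control skin at day 10, and to at most 0.0535 FPKM in the other 16 libraries. Y-linked transcripts (Ddx3y, Uty, Kdm5d and Eif2s3y) summed to 22.3 to 33.4 FPKM in 4 treatment libraries (replicates 1, 2 and 4 of day 15 and replicate 3 of day 10), against 39.2 to 50.6 FPKM in the other 20. Nothing in the labels ties replicate numbers to cages or days, so the main fit used no block. Its p-values rest on the spread between mice inside groups, with 1 estimate per gene shared by all groups.

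The family spans a wide range of levels. Over all 24 libraries the mean was 729 FPKM for Krt83, 626 for Krt81, 556 for Krt87, 471 for Krt86, 436 for Krt85, 71.0 for Krt82 and 7.73 for Krt84. Krt85 was above Krt82 and Krt82 above Krt84 in 24 of 24 libraries each. Krt83 was above Krt81 in 24 of 24 as well, but their means lie close and both share windows with other members, so the order of these 2 genes is uncertain. The middle of the order is less firm, with Krt81 above Krt87 in 18 libraries, Krt87 above Krt86 in 19 and Krt86 above Krt85 in 14. In these values Krt86 and Krt85 changed places with the day. Krt85 was above Krt86 in 0 of 12 libraries at day 15 and in 10 of 12 at day 10. Krt86 shares windows with other members and Krt85 was not searched for them, so which of these 2 is higher is uncertain too. Summed over the 7 genes, the level at day 15 was 4007 ± 649 FPKM in treatment skin, 2270.1 ± 539 in model skin and 3545 ± 331 in control skin. At day 10 the sum was 2411 ± 238 FPKM in treatment skin, 1619 ± 794 in model skin and 3530.0 ± 839.7 in control skin (SD, n = 4 each). The family accounted for 0.266 to 1.09% of the FPKM total of a library.

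**Figure D1:**
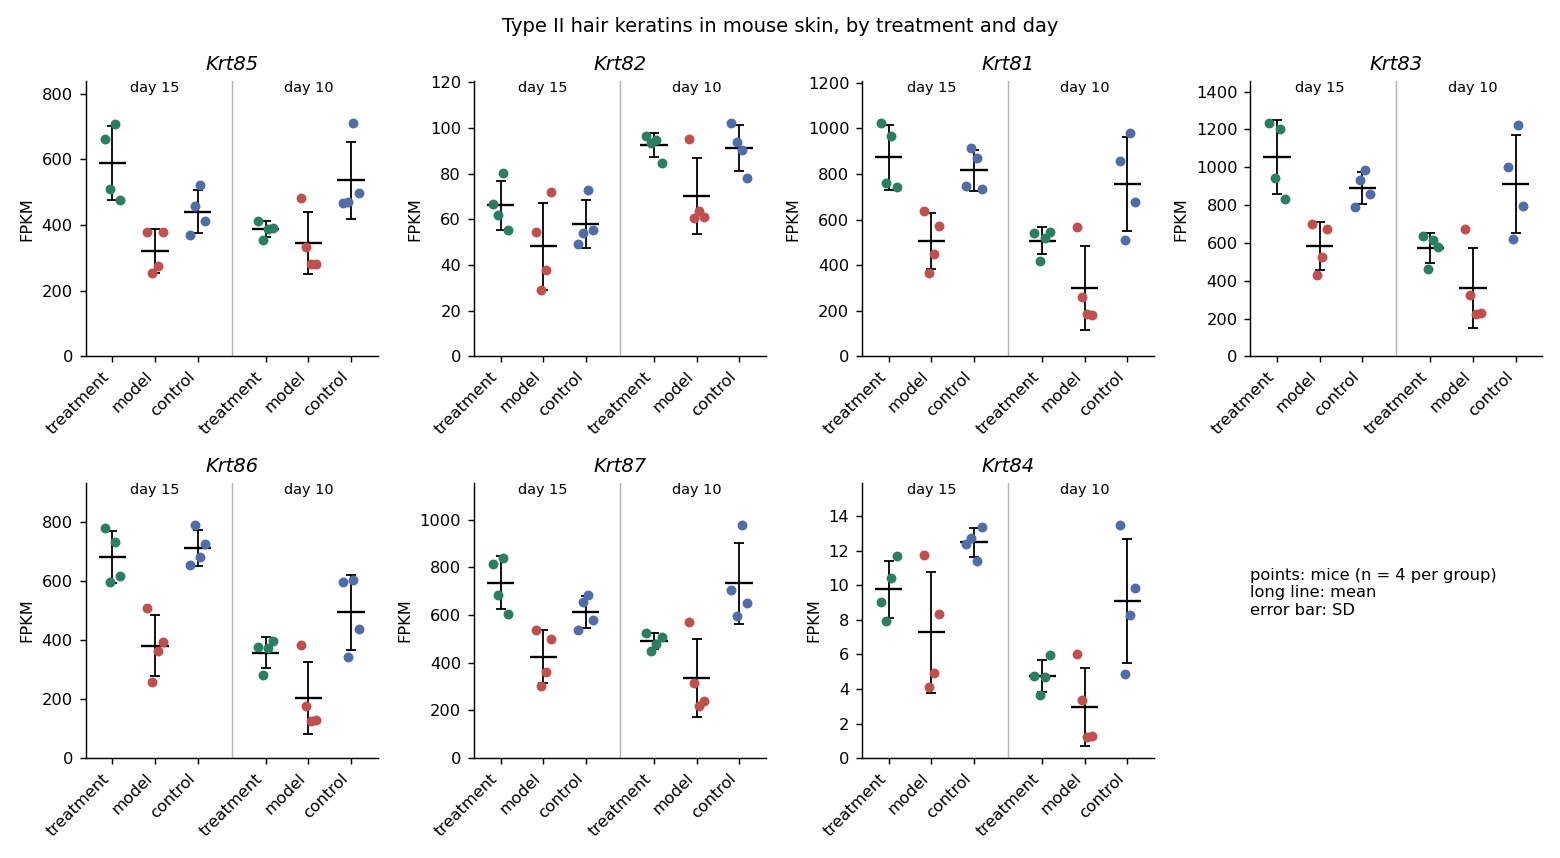
FPKM of each type II hair keratin in every mouse, with day 15 left of day 10 and treatment, model and control skin from left to right; long lines are means and bars are SD (n = 4). Model skin has the lowest mean in every panel at both days, and at day 10 its replicate 1 lies above the other 3 model mice for all 7 genes.

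Model was first set against control, to ask what DHT injection did. At day 15 every member had a lower mean in model skin, and Krt86 was the only one past the threshold. Krt86, a cortex keratin in the human follicle, measured 509, 258, 362 and 393 FPKM in model mice and 653, 790.4, 679.6 and 725 FPKM in control mice. The groups did not overlap, and the mean was 1.87-fold lower in model skin, at 381 ± 103 FPKM against 712 ± 60.1 FPKM in control skin (SD, n = 4 each). The log2 difference, on the log2(FPKM + 1) scale used throughout, was -0.94 ± 0.27 (standard error; adjusted p = 0.033, limma with Benjamini-Hochberg adjustment over 13039 genes). Of all genes tested, 6.56% fell by this rule, so 1 of 7 members is close to the background.

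The other 6 members missed the threshold at day 15. Their log2 differences were -0.79 for Krt84, -0.71 for Krt81, -0.64 for Krt83, -0.56 for Krt87, -0.47 for Krt85 and -0.32 for Krt82 (limma, adjusted p from 0.0884 to 0.294). Krt81 measured 637, 367, 448 and 573 FPKM in model mice and 748, 912, 872 and 733 FPKM in control mice. Krt81, Krt83, Krt86 and Krt87 did not overlap between the groups and were lower in model skin, a pattern that 12.3% of all genes showed. The Krt86 call did not hold when any of 5 libraries was left out. Its limma adjusted p was then 0.0862, 0.0779 and 0.0786 without control replicate 2, 3 or 4, and 0.104 and 0.0778 without model replicate 2 or 3. Without model replicate 1 the Krt84 difference was -1.03 (adjusted p = 0.037).

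At day 10, 6 of the 7 members fell in model skin. The background for this rule was 7.04% of all genes tested, with a median log2 difference of -0.02 over all genes and of -1.39 over the 7 members. Kidney transcripts, described above, were also lower in model skin. Kap was at -0.39, Umod at -0.29 and Slc34a1 at -0.24 (limma, adjusted p = 0.00538, 0.0134 and 0.0322). Their part in the hair keratin differences was not tested. Krt81 measured 568, 259.9, 185 and 180.5 FPKM in model mice and 859, 510.4, 979 and 679 FPKM in control mice. Its mean was 2.54-fold lower in model skin, at 298 ± 184 FPKM against 757 ± 205 FPKM in control skin, with a log2 difference of -1.47 ± 0.27 (limma, adjusted p = 0.00359). Model replicate 1 lay inside the control range and the other 3 model mice lay below every control mouse.

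Krt83 and Krt86, the other cortex keratins, behaved in the same way. Krt83 measured 675, 323, 224 and 229.8 FPKM in model mice and 1003, 621, 1221 and 794 FPKM in control mice, a log2 difference of -1.43 ± 0.27 (limma, adjusted p = 0.00363). Krt86 measured 383, 178, 125 and 129.8 FPKM in model mice and 596, 341, 602 and 437 FPKM in control mice, a log2 difference of -1.39 ± 0.27 (limma, adjusted p = 0.00411). In both genes model replicate 1 overlapped the controls. Krt87, whose human counterpart is a pseudogene, measured 573, 316, 218 and 238 FPKM in model mice and 706, 594, 979 and 652 FPKM in control mice. It was the only member whose groups did not overlap at this day, against 9.3% of all genes that were lower without overlap, and its log2 difference was -1.21 ± 0.23 (limma, adjusted p = 0.00417).

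Krt84, at the bottom of the level range, measured 6.02, 3.37, 1.21 and 1.27 FPKM in model mice and 13.5, 4.86, 8.26 and 9.84 FPKM in control mice. Model replicate 1 lay above the lowest control mouse. The mean was 3.07-fold lower in model skin and the log2 difference was -1.45 ± 0.32 (limma, adjusted p = 0.00888). Krt85, the matrix and precortex keratin, measured 482, 335, 280.2 and 282 FPKM in model mice and 467, 470.4, 710.3 and 497 FPKM in control mice. The groups overlapped through model replicate 1, and the log2 difference of -0.65 ± 0.18 was the smallest of the 6 (limma, adjusted p = 0.025). The Krt85 call was lost without control replicate 3 (-0.51, adjusted p = 0.104) and without model replicate 2, 3 or 4 (-0.65, -0.56 and -0.57; limma adjusted p = 0.0633, 0.0947 and 0.0803). It was also lost in a fit of the 8 libraries compared (limma, adjusted p = 0.0519).

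Krt82, the cuticle keratin of the human follicle, did not pass at day 10. It measured 95.0, 60.8, 63.8 and 61.2 FPKM in model mice and 102, 93.9, 90.5 and 78.2 FPKM in control mice. The log2 difference was -0.39 ± 0.20 (limma, adjusted p = 0.2; 95% interval -0.82 to 0.03). Here 3 of the 4 model mice lay below every control mouse, and model replicate 1 lay among the controls. That mouse was the highest model mouse for all 7 genes at day 10, and left out, the Krt81 log2 difference was -1.83 and that of Krt82 was -0.54.

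Treatment was next set against model, to ask what the extract did in DHT-injected mice. At day 15, 5 of the 7 members rose in treatment skin, against a background of 10.3% of all genes. The same 5, Krt81, Krt83, Krt85, Krt86 and Krt87, had no overlap between the groups, which 7.98% of all genes showed in this direction. The median log2 difference was 0.82 over the 7 members and -0.02 over all genes tested.

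Krt85 had the smallest p of the family. It measured 663, 509.9, 708 and 476 FPKM in treatment mice and 378, 253, 276 and 379 FPKM in model mice, with means of 589 ± 114 FPKM in treatment skin and 321 ± 66.5 FPKM in model skin (SD, n = 4 each). The treatment mean was 1.83-fold higher, and the log2 difference was 0.88 ± 0.18 (limma, adjusted p = 0.0038). Krt83 measured 1234, 942, 1201 and 835 FPKM in treatment mice and 698, 430.3, 525 and 674 FPKM in model mice. Every treatment mouse lay above every model mouse, and the log2 difference was 0.86 ± 0.27 (limma, adjusted p = 0.0293).

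The remaining cortex keratins and Krt87 rose by similar amounts. Krt81 measured 1023, 759.9, 968 and 741 FPKM in treatment mice and 637, 367, 448 and 573 FPKM in model mice, a log2 difference of 0.80 ± 0.27 (limma, adjusted p = 0.0437). Krt86 measured 781, 596, 731 and 616 FPKM in treatment mice and 509, 258, 362 and 393 FPKM in model mice, a log2 difference of 0.87 ± 0.27 (limma, adjusted p = 0.0284). For both genes the lowest treatment mouse lay above the highest model mouse. Krt87 measured 812, 684, 841 and 606 FPKM in treatment mice and 536, 302, 362 and 499 FPKM in model mice, a log2 difference of 0.82 ± 0.23 (limma, adjusted p = 0.0193).

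Krt82 and Krt84 did not pass at day 15. Krt82 measured 66.9, 61.9, 80.3 and 55.2 FPKM in treatment mice and 54.6, 28.9, 37.8 and 71.9 FPKM in model mice, a log2 difference of 0.51 ± 0.20 (limma, adjusted p = 0.079; 95% interval 0.09 to 0.94). Krt84 measured 9.02, 7.92, 10.4 and 11.7 FPKM in treatment mice and 11.8, 4.13, 4.92 and 8.35 FPKM in model mice, a log2 difference of 0.46 ± 0.32 (limma, adjusted p = 0.323; 95% interval -0.22 to 1.13). For Krt82 model replicate 4 lay inside the treatment range, and for Krt84 model replicate 4 lay inside it and replicate 1 just above it. Without model replicate 4 the Krt82 difference was 0.73 (limma, adjusted p = 0.0138).

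The count at day 15 depended on single libraries and on the fit. Of the 7 members, 1 was called when model replicate 2 or 3 or treatment replicate 1 was left out, and 3 were called when treatment replicate 3 was. Without model replicate 4 the Krt81 difference was 0.87 and just missed (limma, adjusted p = 0.052). Krt85 was called under each of these 8 omissions, with log2 differences from 0.77 to 0.97 (limma, adjusted p from 0.00254 to 0.0194). In a fit of the 8 libraries compared none of the 7 was called (limma, adjusted p = 0.134 for each of the 5), although the differences are the same. Without the 4 treatment libraries of low Y-linked transcripts, which leaves 1 treatment mouse at day 15 that is assumed to vary like the other groups, only Krt85 was called (1.16, adjusted p = 0.0115).

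At day 10 every member had a higher mean in treatment than in model skin, and none passed. Over all genes 0.192% were called in either direction here, 25 genes by limma and 16 by voom on the recovered reads, and 1360 genes had an unadjusted p under 0.05. Krt86 measured 377, 281, 373 and 397 FPKM in treatment mice against 383, 178, 125 and 129.8 FPKM in model mice, a log2 difference of 0.95 ± 0.27 (limma, adjusted p = 0.204). Krt81 measured 542, 419, 519 and 546 FPKM in treatment mice against 568, 259.9, 185 and 180.5 FPKM in model mice, a log2 difference of 0.92 ± 0.27 (limma, adjusted p = 0.215). In each gene the treatment mice lay close together and model replicate 1 lay with or above them.

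The other members at day 10 had log2 differences of 0.80 for Krt83, 0.70 for Krt84, 0.65 for Krt87, 0.42 for Krt82 and 0.20 for Krt85 (limma, adjusted p from 0.265 to 0.747). Krt85 stood out by how little it differed, at 412, 353, 389 and 391 FPKM in treatment mice against 482, 335, 280.2 and 282 FPKM in model mice (95% interval -0.18 to 0.58). Without model replicate 1, 4 members were called, with log2 differences of 1.29 for Krt81, 1.15 for Krt83, 1.31 for Krt86 and 0.94 for Krt87 (limma, adjusted p = 0.00418, 0.0106, 0.00418 and 0.0189). The kidney transcripts described above summed to at most 0.015 FPKM in treatment skin and at least 16.6 FPKM in model skin at this day, and their part in these differences was not tested.

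**Figure D2:**
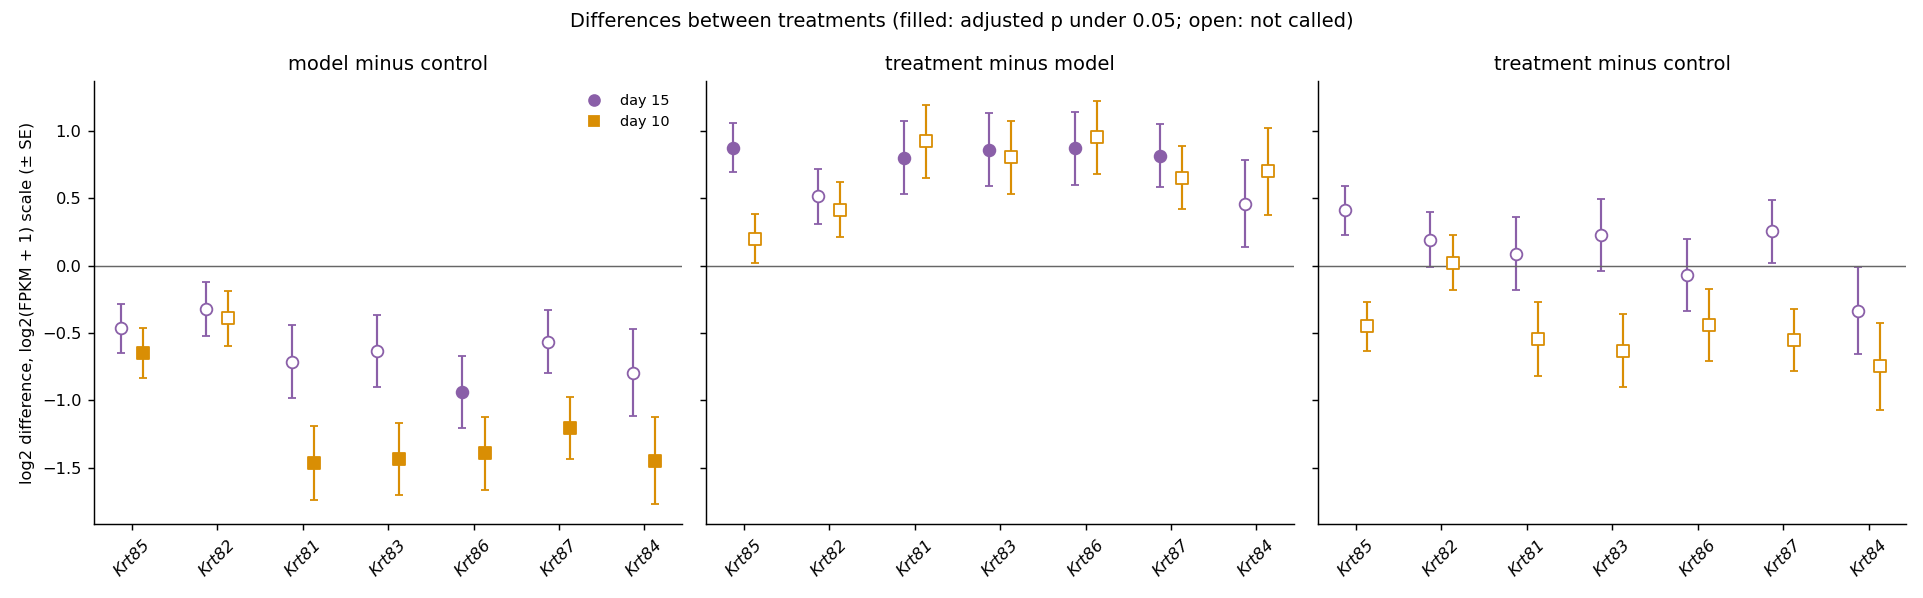
Log2 difference of each type II hair keratin, on the log2(FPKM + 1) scale with its standard error, for model minus control, treatment minus model and treatment minus control; circles are day 15, squares are day 10, and filled symbols passed an adjusted p of 0.05. Filled symbols number 6 for model minus control at day 10, 5 for treatment minus model at day 15, 1 for model minus control at day 15 and 0 in the other panels and days.

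Treatment was also set against control, a comparison that shares its libraries with both of those above. At day 15 no member passed, where 0.314% of all genes did in either direction (41 genes by limma, 28 by voom, and 2572 at an unadjusted p under 0.05). The log2 differences were 0.41 for Krt85, 0.25 for Krt87, 0.23 for Krt83, 0.19 for Krt82, 0.09 for Krt81, -0.07 for Krt86 and -0.34 for Krt84. Their 95% intervals reached from -1.01 for Krt84 to 0.79 for Krt85, so differences of that size are not excluded by these mice. For Krt85 the means were 589 ± 114 FPKM in treatment skin and 441 ± 66.0 FPKM in control skin (SD, n = 4 each; limma, adjusted p = 0.218).

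At day 10 no member passed against control either, where 3.24% of all genes did in either direction (423 genes by limma, 347 by voom, and 3395 at an unadjusted p under 0.05). All but Krt82 had lower means in treatment skin, with log2 differences of -0.75 for Krt84, -0.63 for Krt83, -0.55 for Krt87, -0.54 for Krt81, -0.45 for Krt85 and -0.44 for Krt86 (limma, adjusted p from 0.137 to 0.287). Krt85 and Krt87 did not overlap and were lower, as were 12.4% of all genes. Krt85 measured 412, 353, 389 and 391 FPKM in treatment mice and 467, 470.4, 710.3 and 497 FPKM in control mice. Both genes passed in a fit of the 8 libraries compared (limma, adjusted p = 0.0448 for Krt85 and 0.0279 for Krt87). Kidney transcripts, described above, summed to at most 0.015 FPKM in treatment skin and at least 24.05 FPKM in control skin at this day. Their part in these differences was not tested. Krt82 averaged 92.4 ± 5.27 FPKM in treatment skin and 91.2 ± 9.94 FPKM in control skin, a log2 difference of 0.02 with a 95% interval from -0.40 to 0.45.

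Day 15 was set against day 10 within each treatment, and the members did not all run the same way. In treatment skin Krt86, Krt83 and Krt85 were higher at day 15, against a background of 2.11% of all genes that rose. Krt86 averaged 681 ± 89.0 FPKM at day 15 and 357 ± 52.0 FPKM at day 10, a log2 difference of 0.93 (limma, adjusted p = 0.0334). Krt83 averaged 1053 ± 195 FPKM at day 15 and 573 ± 78.5 FPKM at day 10, a log2 difference of 0.87 (limma, adjusted p = 0.0449). Krt85 averaged 589 ± 114 FPKM at day 15 and 387 ± 24.4 FPKM at day 10, a log2 difference of 0.59 (limma, adjusted p = 0.045).

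All members except Krt82 were higher at day 15 in treatment skin with no overlap between the days, as were 4.65% of all genes. Krt82 lay the other way, at 66.9, 61.9, 80.3 and 55.2 FPKM at day 15 and 96.6, 93.5, 94.7 and 84.7 FPKM at day 10, again with no overlap (log2 difference -0.49; limma, adjusted p = 0.132). Lower values without overlap were seen for 9.57% of all genes. The 3 calls were close to the threshold. None of the 7 was called without treatment replicate 1, 2 or 4 of day 10 or replicate 1 of day 15, and 1 was called without replicate 3 of either day. Without replicate 2 of day 15 the Krt83 difference was 0.91 and missed (limma, adjusted p = 0.0619). The 3 log2 differences stayed between 0.49 and 0.99 over these omissions. Other cells moved with the day here too, since 6 of 7 inner root sheath markers rose, at 11344 to 13548 FPKM at day 15 and 7173 to 8827 FPKM at day 10 in sum. Sebaceous gland markers fell in 4 of 5 cases, at 88.9 to 196 FPKM at day 15 and 285 to 320 FPKM at day 10, and 2 of 6 fibroblast markers and 1 of 6 interfollicular epidermis markers fell, where 7.53% of all genes did. The part of these cells in the day differences was not tested.

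In model skin Krt84, Krt86 and Krt81 were higher at day 15, against a background of 1.62% of all genes that rose. Krt84 averaged 7.29 ± 3.50 FPKM at day 15 and 2.97 ± 2.27 FPKM at day 10, a log2 difference of 1.14 (limma, adjusted p = 0.0353). Krt86 averaged 381 ± 103 FPKM at day 15 and 204 ± 122 FPKM at day 10, a log2 difference of 1.02 (limma, adjusted p = 0.0269). Krt81 averaged 506 ± 121 FPKM at day 15 and 298 ± 184 FPKM at day 10, a log2 difference of 0.90 (limma, adjusted p = 0.0457). All 3 overlapped between the days through model replicate 1 of day 10.

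The other 4 did not pass in model skin, with log2 differences of 0.81 for Krt83, 0.41 for Krt87, -0.09 for Krt85 and -0.59 for Krt82 (limma, adjusted p from 0.063 to 0.783). Krt85 averaged 321 ± 66.5 FPKM at day 15 and 345 ± 94.8 FPKM at day 10. The count of calls was 5 without model replicate 1 of day 10, and 0 without replicate 2, 3 or 4 of day 10 or replicate 1 or 3 of day 15. Without replicate 2 of day 15 Krt83 passed as well (0.94, limma adjusted p = 0.0412). Without replicate 4 of day 15 Krt82 passed (-0.80, adjusted p = 0.0139), while Krt81 (0.83, adjusted p = 0.0856) and Krt84 (1.05, adjusted p = 0.0683) did not, by limma. The kidney transcripts summed to 16.6 FPKM or more in each model and control library of day 10 and to at most 0.0535 FPKM at day 15, and their part in the differences between days was not tested.

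Markers of other cells also differed between the days in model skin, where 6.85% of all genes fell. All 5 melanocyte markers fell, at 91.3 to 171 FPKM at day 15 and 181 to 263 FPKM at day 10 in sum. Interfollicular epidermis markers fell in 3 of 6 cases, at 842 to 1483 FPKM at day 15 and 1434 to 2645 FPKM at day 10. Sebaceous gland markers fell in 2 of 5 cases, at 87.9 to 176 FPKM at day 15 and 167 to 348 FPKM at day 10, and 1 of 7 inner root sheath markers, Krt72, rose. Their part in the hair keratin differences was not tested.

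In control skin no member passed, where 4.81% of all genes did in either direction (627 genes by limma, 437 by voom, and 3116 at an unadjusted p under 0.05). Krt82 measured 49.1, 54.0, 73.1 and 55.2 FPKM at day 15 and 102, 93.9, 90.5 and 78.2 FPKM at day 10. It was lower at day 15 with no overlap, as were 15.4% of all genes, and its log2 difference was -0.66 ± 0.20 (limma, adjusted p = 0.0603). It passed without control replicate 3 of day 15 (-0.77, adjusted p = 0.0383). Krt86 lay the other way with no overlap, as did 7.01% of all genes, at 712 ± 60.1 FPKM at day 15 and 494 ± 127 FPKM at day 10 (log2 difference 0.56; limma, adjusted p = 0.208). Krt82 was thus the member with a lower mean at day 15 in all 3 treatments. In control skin 3 of 5 melanocyte markers and 1 of 5 sebaceous gland markers fell and 1 of 5 macrophage markers rose, and their part in these values was not tested.

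**Figure D3:**
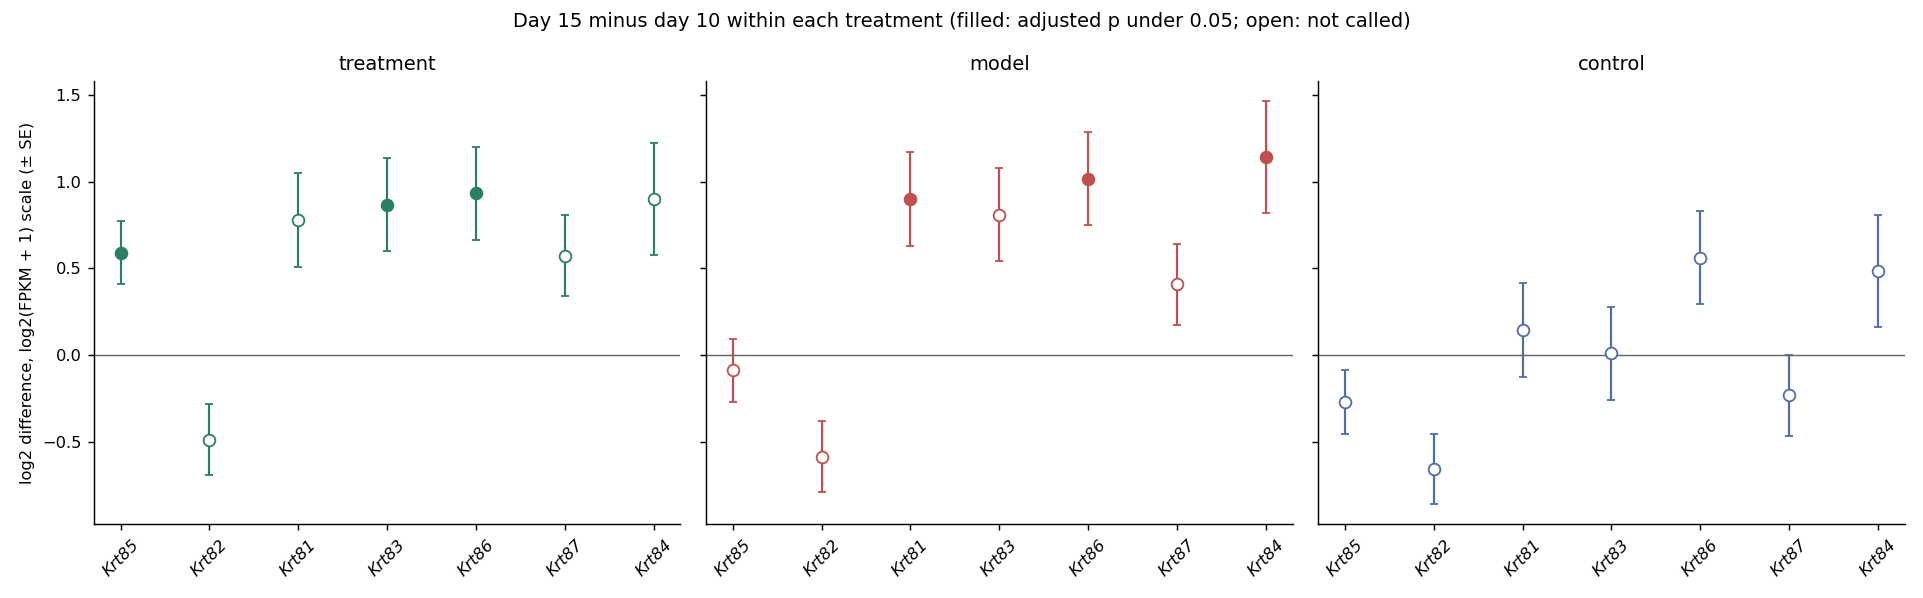
Log2 difference of each type II hair keratin between day 15 and day 10, on the log2(FPKM + 1) scale with its standard error, in treatment, model and control skin; filled symbols passed an adjusted p of 0.05. Krt82 lies below 0 in the 3 panels, at -0.49, -0.59 and -0.66. Krt81, Krt83, Krt84 and Krt86 lie above 0 in the 3 panels, Krt83 by only 0.01 in control skin.

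Whether the differences themselves changed with the day was tested as an interaction. For the model-control difference no member passed and no gene of the 13039 did (0% by limma, 0 genes by voom, and 352 genes at an unadjusted p under 0.05). The values, as the day 15 difference minus that of day 10, lay between 0.07 for Krt82 and 0.80 for Krt83. For the treatment-model difference no member passed either, where 0.0997% of all genes did (13 genes by limma, 13 by voom, and 1884 at an unadjusted p under 0.05). Krt85 had the largest value, 0.68 ± 0.26 (limma, adjusted p = 0.231), and the other 6 lay between -0.24 and 0.17. A larger fall of the family at day 10 than at day 15, or a larger rise under the extract at day 15, is therefore not shown by these tests.

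To ask whether members moved unequally, each was divided by Krt85 in the same mouse. Of 24 differences in log2 ratio, none passed after Benjamini-Hochberg adjustment (exact permutation test, two-sided, lowest adjusted p = 0.125). This test cannot give a p below 0.0286 with 4 mice against 4. An adjusted p under 0.05 would have needed many of the 24 ratios at that floor. The lack of calls therefore does not decide whether members moved unequally. At day 15 the treatment-model differences in ratio were -0.01 for Krt86, -0.01 for Krt83, -0.06 for Krt87 and -0.07 for Krt81. They were -0.42 for Krt84 (exact permutation p = 0.143, adjusted p = 0.229) and -0.36 for Krt82 (exact permutation p = 0.0571, adjusted p = 0.125). In these means Krt81, Krt83, Krt86, Krt87 and Krt85 differed between the groups by nearly the same factor, which 4 mice a group do not establish as equality.

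At day 10 the ratios lay further apart. The log2 ratio of Krt87 to Krt85 averaged -0.11 ± 0.27 in model skin and 0.45 ± 0.11 in control skin, a difference of -0.56 with no overlap (exact permutation p = 0.0286, adjusted p = 0.125). In treatment skin it averaged 0.34 ± 0.03, which was 0.45 above model skin, again with no overlap (exact permutation p = 0.0286, adjusted p = 0.125). The log2 ratio of Krt81 to Krt85 averaged 0.38 ± 0.10 in treatment skin and -0.34 ± 0.41 in model skin, also with no overlap (exact permutation p = 0.0286, adjusted p = 0.125). Krt85 made up 22.7 ± 3.79% of the family's summed FPKM in model skin and 15.4 ± 2.21% in control skin at day 10 (SD, n = 4 each).

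The mean ratio of Krt82 to Krt85 was lower at day 15 in all 3 treatments. In treatment skin its log2 value averaged -3.13 ± 0.11 at day 15 and -2.05 ± 0.12 at day 10, a difference of -1.08 with no overlap (exact permutation p = 0.0286, adjusted p = 0.0571). The difference was -0.50 in model skin and -0.39 in control skin, with overlap (exact permutation p = 0.0571 and 0.114, adjusted p = 0.0935 and 0.147). In model skin the log2 ratio of Krt86 to Krt85 averaged 0.23 ± 0.21 at day 15 and -0.88 ± 0.38 at day 10, a difference of 1.10 with no overlap (exact permutation p = 0.0286, adjusted p = 0.0571). These day comparisons of ratios were added after the values were seen, and none of the 18 passed. The floor on p limits them in the same way.

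**Figure D4:**
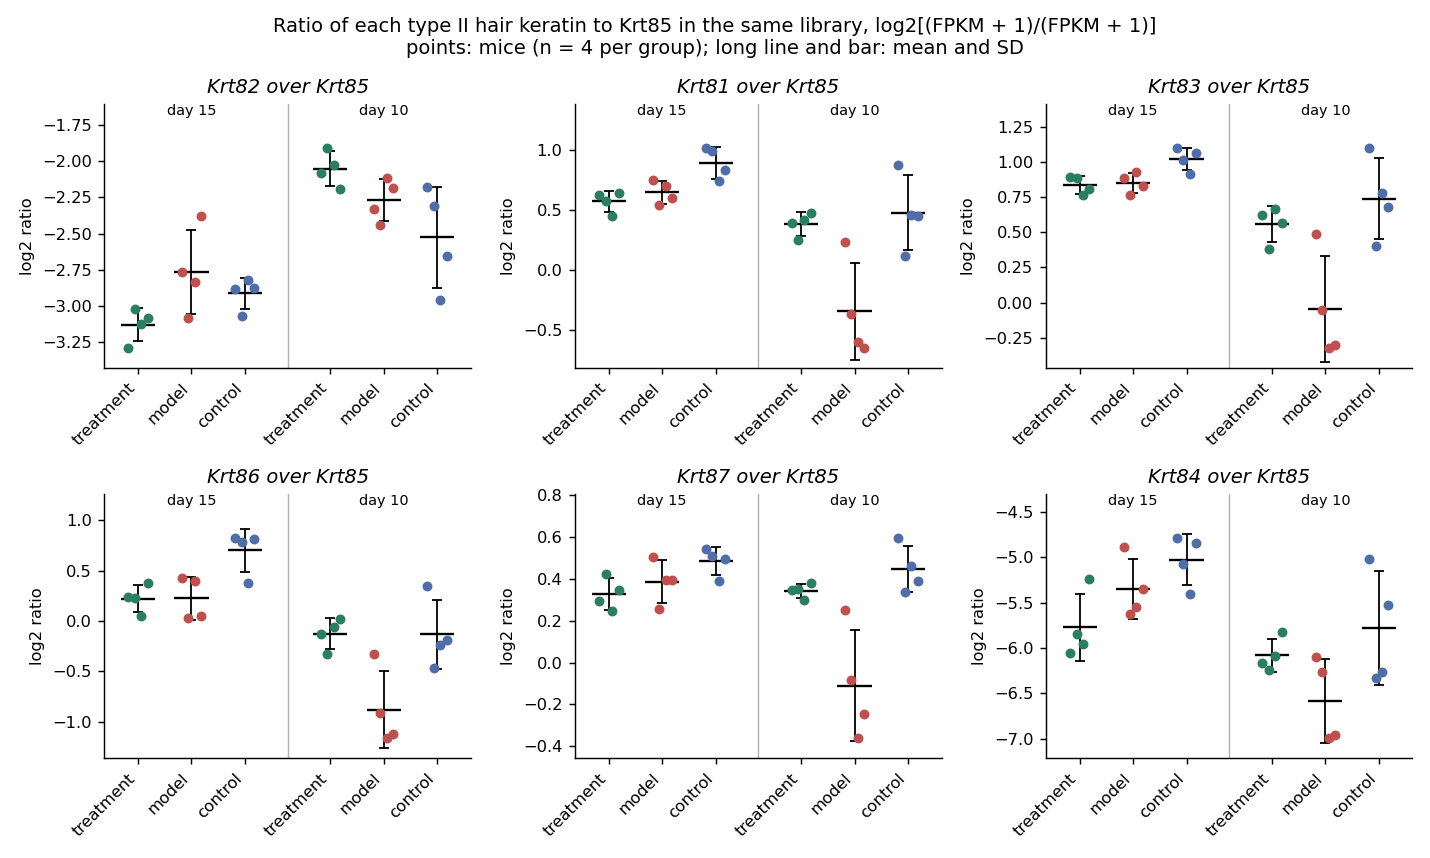
Log2 ratio of each type II hair keratin to Krt85 in the same mouse, with day 15 left of day 10 and treatment, model and control skin from left to right; long lines are means and bars are SD (n = 4). At day 10 the model mice have the lowest mean for Krt81 and Krt87 and lie below every treatment mouse, and for Krt82 the day 15 treatment mice lie about 1.08 below those of day 10.

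Across the 24 mice Krt82 had the lowest correlations with the other members. On the log2(FPKM + 1) scale Pearson's r was 0.993 between Krt81 and Krt83, 0.98 between Krt81 and Krt86 and 0.955 between Krt81 and Krt87. With group means removed the same values were 0.987, 0.975 and 0.958, so these genes followed each other from mouse to mouse inside groups as well. Krt82 had an r of 0.0159 with Krt84, 0.2 with Krt81 and 0.519 with Krt85, and 0.506, 0.626 and 0.738 with group means removed. Krt84 and Krt85 were not set apart in this way. The r was 0.940 between Krt84 and Krt86 and 0.923 between Krt85 and Krt87, against 0.897 between Krt86 and Krt87. It was 0.614 between Krt84 and Krt85. The points share library and tissue make-up, and Krt81, Krt83, Krt86 and Krt87 also share sequence, so these values are a description over 24 libraries.

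Likeness to the family was taken as Pearson's r with the mean standardized level of the 7 members over the 24 libraries. Symbols of unnamed gene models were left out. The genes most alike were Krt33b (0.985), Foxn1 (0.983), Krt31 (0.982), Psors1c2 (0.978), Krt33a (0.973), Csdc2 (0.968), Krtap11-1 (0.960) and Ascc2 (0.960). Krt31, Krt33a and Krt33b are type I hair keratins, Foxn1 is the transcription factor whose loss makes mice nude, and Krtap11-1 is a keratin-associated protein gene. With group means removed r was between 0.915 for Ascc2 and 0.982 for Krt31.

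The type I hair keratins, the pairing partners of the family, moved in the same directions. In model against control at day 15, 2 of 9 fell (median log2 difference -0.52), with Krt34 at -0.89 (limma, adjusted p = 0.0285). At day 10, 6 of 9 fell (median -1.08), with Krt33b at -1.40 and Krt33a at -1.31 (limma, adjusted p = 0.00359 and 0.00397). In treatment against model at day 15, 6 of 9 rose (median 0.78), with Krt34 at 0.92 and Krt31 at 0.86 (limma, adjusted p = 0.0134 and 0.0165), and at day 10 none of the 9 passed (median 0.52). The shares of all genes called are those given above for each comparison, and the comparisons share the model libraries.

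Of 10 transcription factors that act in the hair matrix and shaft, 4 fell in model against control skin at day 15 and 6 fell at day 10. Of all genes, 6.56% and 7.04% fell in these comparisons. In treatment against model skin 7 of the 10 rose at day 15, where 10.3% of all genes rose, and none passed at day 10. Foxn1 had log2 differences from control of -0.53 at day 15 and -0.87 at day 10 in model skin (limma, adjusted p = 0.0792 and 0.00934), and of 0.74 from model in treatment skin at day 15 (limma, adjusted p = 0.014). Prdm1, Ovol1 and Foxq1 were among those that fell at day 10, at -0.65, -0.66 and -0.79 (limma, adjusted p = 0.0081, 0.0166 and 0.0218). Hoxc13, a direct activator of hair keratin genes in the mouse, was not called against control and rose by 0.59 in treatment against model skin at day 15 (limma, adjusted p = 0.0366).

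Of 6 genes of fiber assembly and human hair disorders, 4 fell in model against control skin at day 15 and 5 fell at day 10. Of all genes, 6.56% and 7.04% fell in these comparisons. In treatment against model skin at day 15, 4 of the 6 rose, where 10.3% of all genes did. Tgm3, a transglutaminase that cross-links hair proteins, differed from control by -0.78 at day 15 and -1.28 at day 10 in model skin, and from model by 0.96 in treatment skin at day 15 (limma, adjusted p = 0.0429, 0.00363 and 0.0107). Padi3, which deiminates hair proteins, differed by -0.72, -0.78 and 0.69 in the same comparisons (limma, adjusted p = 0.0192, 0.0109 and 0.0138). Liph, a lipase behind a human hair disorder, differed by -0.46, -0.51 and 0.42 in these comparisons (limma, adjusted p = 0.033, 0.0176 and 0.0295). Dsg4, a desmosomal cadherin of the shaft, differed from control by -0.66 at day 15 and -0.76 at day 10 in model skin (limma, adjusted p = 0.0523 and 0.0272). None of the 6 passed in treatment against model skin at day 10.

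The other type II keratins, those of root sheath and epidermis, numbered 16 in the table, of which 15 were tested. In model against control skin 7 of the 15 fell at day 15 and 6 fell at day 10, where 6.56% and 7.04% of all genes fell. The medians were -0.55 and -0.33 against -0.64 and -1.39 over the type II hair keratins. Krt72, of the inner root sheath, differed by -1.03 at day 15 and -1.13 at day 10 (limma, adjusted p = 0.013 and 0.00567). In treatment against model skin 5 of the 15 rose at day 15, where 10.3% of all genes rose, and 2 rose at day 10. Those 2, where 0.092% of all genes rose, were Krt6a and Krt6b of the companion layer and the stressed epidermis. Both were named after their values were seen. Krt6a was at 1.22 and Krt6b at 2.77 (limma, adjusted p = 0.00311 and 0.0144), at a day when none of the hair keratins passed. From control skin at that day Krt6a differed by 0.35 and Krt6b by 3.04 in treatment skin (limma, adjusted p = 0.236 and 0.00309). In model skin Krt6a differed from control by -0.87 and Krt6b by 0.28 at day 10 (limma, adjusted p = 0.0081 and 0.744).

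Markers of other skin cells moved alongside. All 7 inner root sheath markers fell in model against control skin at day 10, where 7.04% of all genes fell. Their summed levels were 5111 to 9013 FPKM in model skin and 7837 to 13046 FPKM in control skin. At day 15, 6 of 7 fell. All 7 rose in treatment against model skin at day 15, at 11344 to 13548 FPKM in treatment skin and 5615 to 9970 FPKM in model skin. Macrophage markers went the other way, since 5 of 5 rose in model against control skin at day 10 (6.79% of all genes rose), at 257 to 356 FPKM in model skin and 117 to 151 FPKM in control skin. At day 15, 2 of 5 rose (4.23% of all genes). In treatment against model skin at day 15, 2 of 5 macrophage markers and 2 of 6 fibroblast markers fell, against 9.32% of all genes. Fibroblast markers rose in 2 of 6 cases in model against control skin at each day, at 7070 to 10812 FPKM in model skin and 4071 to 6232 FPKM in control skin at day 10. Interfollicular epidermis markers fell in 3 of 6 cases in model against control skin at day 15, where 6.56% of all genes fell, and passed in 0 of 6 at day 10. The 3 were Krt5 (-0.69), Krt14 (-0.68) and Ivl (-0.76), named after their values were seen (limma, adjusted p = 0.00496, 0.0151 and 0.0333). The other 3, Krt1 (0.21), Krt10 (0.04) and Lor (0.02), did not fall (limma, adjusted p from 0.798 to 0.973). The summed level of all 6 at day 15 was 842 to 1483 FPKM in model skin and 1665 to 1814 FPKM in control skin, with no overlap. Melanocyte markers rose in 3 of 5 cases in treatment against model skin at day 15, where 10.3% of all genes rose. Their sum was 186 to 234 FPKM in treatment skin and 91.3 to 171 FPKM in model skin, again with no overlap. In treatment against control skin at day 10, 3 of 5 macrophage markers rose, where 3.24% of all genes passed in either direction. Sebaceous gland, adipocyte and skeletal muscle markers, 5 of each, passed in 0 cases in the comparisons between treatments. No marker on these lists was at 0 in every library of a group. The part of these cell types in the hair keratin differences was not tested.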

How the data were processed

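Skin RNA of 24 mice was sequenced as poly(A) libraries. The authors deposited 1 table of FPKM values for 18892 gene symbols, 1 column per mouse, and all 24 columns were used. Per the submitters' processing notes, fastp, HISAT2 and HTSeq were used with build GRCm39, and versions, settings and annotation are not given in the sources used here. Groups were taken from the sample titles. Whole reads were recovered from the steps of the FPKM values for 18713 of the 18715 genes above 0 (99.99%, tolerance 0.01 read, or 0.05 above 1000 reads), 36064157 to 40402478 per library. They carry no molecular identifiers, so precision was taken from the spread between mice.

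Values were transformed as log2(FPKM + 1), which understates differences of low genes such as Krt84. Genes with at least 1 FPKM in at least 4 libraries (13039) were fitted with limma 3.58.1 under R 4.3.3, with 1 mean per group over all 24 libraries and eBayes with trend and robust. Tests were two-sided, with Benjamini-Hochberg adjustment over genes in each of 11 comparisons and calls at an adjusted p under 0.05. Each difference is first group minus second. Ratios to Krt85 were tested with exact permutation tests (SciPy 1.17.1, Python 3.11.15). Coding sequences were aligned with MAFFT 7.526. The fit was tested on simulated data.

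All 7 members are named in each comparison. From other lists up to 4 examples are the genes of smallest p in model against control at day 10. Likeness takes the 8 genes of highest r outside the family, with symbols of unnamed gene models left out. Hoxc13, Krt6b, Krt5, Krt14, Ivl, Krt1, Krt10 and Lor were named outside that rule. The members and lists were chosen with earlier results of these data known. Other settings tried were 0.1 as the pseudocount, the table without a filter or with genes averaging 5 FPKM or more, scaling by median of ratios, a fit of the compared groups alone, a block for the replicate number, and omission of each library in turn. Added after the values were seen were voom on the recovered reads (1723 genes called in model against control at day 10, where the main fit called 1803), a common total per library, and leaving out the treatment libraries with Y-linked sums below 85% of the median.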

Additional observations from a re-analysis of the deposited data

Results flagged for a closer look

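Among the 42 sets of 4 mice (7 members in 6 groups), 2 held a mouse far from the other 3 by Dixon's test, and chance alone flags about 1 in 20. Krt82 was 94.99 FPKM in model replicate 1 of day 10, where the next highest model mouse was at 63.8 FPKM. This mouse was the highest of its group for all 7 members, and for the other 6 its distance did not pass the same test. Krt85 was 710.3 FPKM in control replicate 3 of day 10, where the next highest control mouse was at 497 FPKM. Without that mouse the Krt85 difference between model and control skin at day 10 was -0.51 (limma, adjusted p = 0.104).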

How the results depend on the processing

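Counts of members called kept within 1.5 times of the main count under most alternatives, and the cause of the exceptions was not tested. In a fit of only the groups compared, 0 were called in treatment against model at day 15, 2 in treatment against control at day 10, and for day 15 against day 10, 5 in treatment, 0 in model and 1 in control skin. With no filter 1 was called between days in treatment skin, and with a common total per library 1 in treatment and 1 in control skin. Without the libraries of low Y-linked transcripts 1 was called in treatment against model at day 15 and 0 between days in treatment skin. Leaving out each library gave 5 to 6 calls in model against control at day 10 and 0 to 2 at day 15. It gave 0 to 4 in treatment against model at day 10 and 1 to 5 at day 15, 0 in both comparisons of treatment with control, and 0 to 3, 0 to 5 and 0 to 1 between days in treatment, model and control skin. Over single members, 635 of 728 values with a library left out and 620 of 658 under other alternatives kept their direction and side of the threshold. Values that changed sign were small: between days, Krt85 in model skin (0.030 with median-of-ratios scaling, which moved the median of all genes by 0.103) and Krt83 in control skin (-0.024 with a common total); and, without the low Y-linked libraries, Krt86 in treatment against control at day 15 (0.042) and the treatment-model interaction of Krt81 (0.057) and Krt86 (0.054). With a library left out, ranges that crossed 0 were, between days, -0.030 to 0.28 for Krt81 and -0.16 to 0.17 for Krt83 in control skin and -0.18 to 0.084 for Krt85 in model skin. In treatment against control at day 10 it was -0.048 to 0.079 for Krt82, and in the model-control interaction -0.14 to 0.28 for Krt82. In the treatment-model interaction they were -0.49 to 0.063 for Krt81, -0.11 to 0.31 for Krt82, -0.29 to 0.24 for Krt83, -0.44 to 0.099 for Krt86 and -0.13 to 0.34 for Krt87. Over 60 pairs of libraries with the same replicate number the correlation of deviations ran from -0.63 to 0.51, with a median of 0.0467. It was above 0.1 in 21 pairs. Libraries of different numbers were not compared in this way, so whether the replicate numbers pair the mice is not decided. With the replicate number as a block 4 members were called between days in model skin, 3 without it, and the count changed in no other comparison. Depth limits Krt84 most.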
